A study of Homo sapiens with 26 samples.

Results

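The tubulin isotypes and microtubule binders described here are 10 genes, measured with 26 of 54613 non-control probe-sets on expression arrays. They are the alpha tubulins TUBA1A and TUBA4A, the beta tubulins TUBB, TUBB2A, TUBB3 and TUBB6, and the binding proteins MAPT, MAP4, STMN1 and MAPRE1. A probe-set, the group of probes that stands for a transcript on the array, was a member if the annotation gave it to such a gene alone, and 2 probe-sets shared with another gene were left out. The probe-sets of these genes were taken by annotation alone, while the genes were chosen with earlier results of these data known. The lines tested were 12 multiple myeloma (MM) lines, including the plasmacytoma line AMO-1, and 14 diffuse large B-cell lymphoma (DLBCL) lines, including MC-116, an undifferentiated lymphoma line. All 26 are established human cell lines of malignant B-lineage cells that were profiled untreated, with 1 array per line, so the line is the replicate. They grew in RPMI, or in IMDM for OCI-Ly3 and LP-1, with 10, 15 or 20 percent serum. The study's supplement lists human serum and 2-mercaptoethanol for OCI-Ly3 and fetal calf serum for the other lines. KMS-12-PE is a sister line of KMS-12-BM.

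The lines were also scored for their response to vincristine, doxorubicin and cyclophosphamide, the last in the form of mafosfamide, which needs no activation by the liver, and 23 of the 26 were scored for all 3 drugs. The score, AUC0, is the area under the part of the dose response curve that lies above 0, so a high value means resistance. Within each disease the lines were classed as Resistant, Intermediate or Sensitive by tertiles of AUC0. For vincristine AUC0 ran from 90 to 187 in the MM lines and from 54 to 131 in the DLBCL lines, with 12 lines scored in each. LP-1 had the 187, and the next MM lines, MOLP-8 and NCI-H929, had 149. The labels give an interval with each AUC0, which the fits and classes here did not use. For vincristine it ran from 32 to 121 in MC-116, Sensitive at 62, while the lowest Resistant DLBCL line had 109. In SU-DHL-8, Resistant at 126, it ran from 81 to 129, and in LP-1 from 153 to 237. The expression values are log2 values after RMA normalisation, with array medians from 5.65 to 5.71. Marker genes were measured as a check of the labels, and 4 of 4 measured B-cell markers were lower in MM and 5 of 5 plasma cell markers were higher by limma. Of 11 T-cell, myeloid and stromal markers, 10 had a mean below 5.68, the median of all values, and DCN was the exception. Some single lines were higher, up to 12.05 for DCN, 8.73 for COL1A1 and 7.39 for LYZ in DLBCL. In MM they reached 7.77 for TRAT1 and 7.31 for CD3E.

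Microtubules are hollow polymers of alpha and beta tubulin dimers that grow and shrink at their ends, and their dynamics build the mitotic spindle. Vincristine binds tubulin dimers and stops the spindle from forming, whereas doxorubicin acts on topoisomerase II and DNA and mafosfamide alkylates DNA. Vertebrates carry several genes for each tubulin, the isotypes, which differ mostly in their tails and in the tissues that use them. Binding proteins shift the balance of growth and shrinkage, and isotype use and binding proteins have long been studied in resistance to drugs that target microtubules.

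The windows upstream of TUBA1A and TUBB2A are shown because these are the alpha and the beta tubulin with the widest spread between lines among the members that have a single start in the RefSeq promoter table. That table, on GRCh38.p14, held 9 of the 10 genes with 15 starts, and all windows are the 250 bases before a start on the strand of the gene. The 2 windows lie at chr12:49189081-49189330 and chr6:3157545-3157794, both on the minus strand. Capitals mark the CCAAT box (CCAAT), the TATA box (TATAAA) and the GC box (GGGCGG), each read on both strands.
TUBA1A: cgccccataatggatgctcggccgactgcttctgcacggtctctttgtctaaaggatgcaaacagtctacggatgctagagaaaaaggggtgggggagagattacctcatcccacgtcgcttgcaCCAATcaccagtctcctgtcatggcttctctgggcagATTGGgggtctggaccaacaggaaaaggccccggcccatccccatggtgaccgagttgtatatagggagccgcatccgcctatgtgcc
TUBB2A: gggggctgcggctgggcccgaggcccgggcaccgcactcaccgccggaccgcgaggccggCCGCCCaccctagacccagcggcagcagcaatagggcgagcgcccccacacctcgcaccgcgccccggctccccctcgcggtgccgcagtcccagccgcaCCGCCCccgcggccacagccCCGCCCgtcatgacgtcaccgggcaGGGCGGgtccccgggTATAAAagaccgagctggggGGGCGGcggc
The window of TUBA1A held 2 CCAAT boxes and no GC or TATA box, and its GC content was 56.4%. That of TUBB2A held 5 GC boxes and 1 TATA box but no CCAAT box, and its GC content was 79.2%, against a median of 58% over 35116 windows. Of all windows, 32% held a CCAAT box, 10.7% a TATA box and 42.6% a GC box. These matches describe the letters only, and no binding was measured.

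Isotype use differed widely between lines for a few members and little for the rest. Where a member had several probe-sets, it is given by the one that varied most (by SD) among the DLBCL lines, its representative. Those of the members that varied most or passed a test are 204141_at for TUBB2A, 209191_at for TUBB6, 209118_s_at for TUBA1A, 212242_at for TUBA4A and 200783_s_at for STMN1. Because probes differ in how strongly they bind, levels were compared between lines for 1 gene at a time and not between genes. Ranges over the lines and distances from a gene's own median are set side by side for several genes, but they too depend on the probes. TUBB2A, TUBB6 and TUBA1A spanned 8.78, 6.26 and 4.64 log2 units from the lowest to the highest line, against 1.38 for TUBB, 1.66 for TUBB3 and 1.68 for MAPRE1. In bulk RNA, fewer cells that express a gene and less of its RNA in each cell cannot be told apart.

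**Figure D1:**
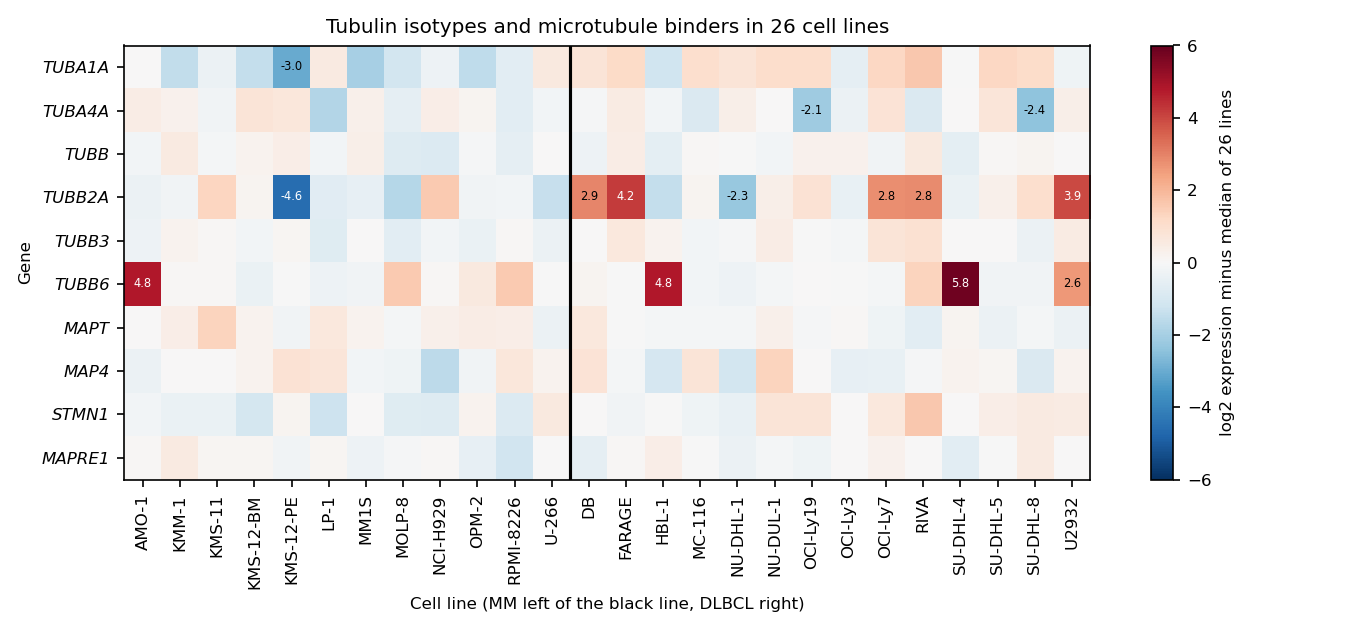
Log2 expression of each member minus its median over the 26 lines, by gene (rows) and cell line (columns), with the 12 MM lines left and the 14 DLBCL lines right of the black line and values of at least 2 in size printed. TUBB6 stands out in AMO-1, HBL-1 and SU-DHL-4, TUBB2A in 5 DLBCL lines, and both TUBA1A and TUBB2A are lowest in KMS-12-PE.

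TUBB2A, a class II beta tubulin best known from the brain, had the widest range of the 10 members. Its log2 level ran from 3.30 through a median of 7.61 to 9.47 in the MM lines, and from 5.60 through 8.51 to 12.08 in the DLBCL lines. The highest lines were FARAGE at 12.08, U2932 at 11.82, DB at 10.81, RIVA at 10.71 and OCI-Ly7 at 10.68, all of DLBCL. The lowest was KMS-12-PE at 3.30, while its sister line KMS-12-BM had 8.04. A total of 8 lines lay more than 1 log2 unit above the median of 7.88 and 5 lay as far below it.

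TUBB6, a class V beta tubulin found at low levels in many tissues, was dim in most lines and bright in a few. Its median over the 26 lines was 4.54, and its mean of 5.36 was below the median of all values. SU-DHL-4 had 10.37, AMO-1 and HBL-1 each lay 4.81 above the median, and U2932 had 7.14. MOLP-8, RPMI-8226 and RIVA followed with differences from the median of 1.58, 1.56 and 1.35, and no line lay more than 1 unit below it. Both diseases therefore held lines with and without a high TUBB6 signal.

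TUBB, the class I beta tubulin that makes up most beta tubulin of dividing cells, was bright in every line, from 11.91 in NCI-H929 to 13.29 in RIVA. No line was more than 1 unit from its median of 12.72. Its 3 probe-sets moved together over the lines, with correlations from 0.823 to 0.997 after the disease means were taken off (n = 26 lines, which share the probe design, given as a description).

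TUBB3, the class III isotype of neurons, ranged from 10.28 in LP-1 to 11.94 in RIVA, again with no line more than 1 unit from the median. Both of its probe-sets are of the kind that Affymetrix marks with an x, because their probes can also bind other transcripts. Over the 26 lines their correlations with the 3 TUBB probe-sets lay between 0.299 and 0.623. How much of the TUBB3 signal comes from other beta tubulins was not tested.

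The alpha tubulins also differed in spread. TUBA1A, an alpha tubulin best known from the developing brain, ran from 7.85 in KMS-12-PE to 12.49 in RIVA, and KMS-12-BM had 9.44. TUBA4A, an alpha tubulin whose gene does not encode the terminal tyrosine of most alpha tubulins, lay between 9.92 and 11.60 in 23 lines. It was low in SU-DHL-8 at 8.39, OCI-Ly19 at 8.67 and LP-1 at 9.02, the only lines more than 1 unit below its median of 10.80, and none lay as far above it.

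Among the binding proteins, STMN1 (stathmin, which sequesters tubulin dimers and promotes shrinkage) ran from 9.51 in LP-1 to 12.35 in RIVA. MAP4, the structural binding protein of cells other than neurons, ran from 7.24 in NCI-H929 to 10.13 in NU-DUL-1. MAPT encodes tau, which stabilises microtubules in axons. Its representative, 203928_x_at, is also of the kind marked with an x. By it MAPT was highest in KMS-11 at 8.15, the only line more than 1 unit above its median of 6.82. The means of the other MAPT probe-sets lay between 4.27 and 6.11, near or below the median of all values, 5.68. MAPRE1 (EB1, which tracks growing ends) was lowest in RPMI-8226 at 9.24, the only line more than 1 unit below its median of 10.37. The 7 MAP4 and 6 MAPT probe-sets did not all follow each other, with correlations between probe-sets of the same gene from −0.109 to 0.957 for MAP4 and from 0.166 to 0.833 for MAPT.

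By line, 9 of 26 had no member more than 1 unit above its median, 10 had 1 member, 6 had 2 and RIVA had 4, namely TUBB2A, TUBA1A, STMN1 and TUBB6. TUBB2A was the member furthest above its median in DB, FARAGE, OCI-Ly7, RIVA, U2932 and NCI-H929. TUBB6 had that place in HBL-1, SU-DHL-4, AMO-1, MOLP-8, RPMI-8226 and OPM-2, in the last by only 0.60. TUBB2A and TUBB6 also had the largest SDs of the members over the 26 lines, 1.95 and 1.76, which favours them in such a ranking. Between the representative probe-sets of the members, the closest pair was TUBA4A and TUBB3 with a correlation of 0.487, followed by TUBB2A and TUBA1A with 0.408, and the most opposed were TUBB6 and TUBB with −0.452 (n = 26 lines, disease means taken off, given as a description).

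The genes whose pattern was most like that of the 4 most variable members were named by the same measure, the highest correlation over the 26 lines after the disease means were taken off, among 19774 genes. For TUBB2A they were HSD17B7P2 (0.717) and GATA3-AS1 (0.692), and for TUBB6 they were LILRA6 (0.705) and WDR5B (0.704). For TUBA1A they were LCOR (0.737) and SETD9 (0.644), and for TUBA4A they were ZNF589 (0.744) and PEX5 (0.694). No other tubulin or binding protein was among them, and the highest of so many correlations over 26 points describes these lines only.

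Between the diseases, TUBA1A and STMN1 were lower in the MM lines than in the DLBCL lines, and no member was higher. TUBA1A ran from 7.85 through a median of 10.01 to 11.45 in the MM lines, and from 9.66 through 11.90 to 12.49 in the DLBCL lines, so the diseases overlapped. Its mean was 9.98 ± 1.07 (SD, n = 12) in MM and 11.51 ± 0.82 (SD, n = 14) in DLBCL, a difference of −1.53 (SE 0.36, adjusted p = 0.0055 from limma). Without KMS-12-PE the difference was −1.34, and TUBA1A passed under every setting and with each line left out in turn.

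STMN1 ran from 9.51 through 10.37 to 11.36 in the MM lines and from 10.29 through 10.97 to 12.35 in the DLBCL lines. Its mean was 10.37 ± 0.56 (SD, n = 12) in MM and 11.05 ± 0.54 (SD, n = 14) in DLBCL, a difference of −0.68 (SE 0.21, adjusted p = 0.0352 from limma). The call lay close to the threshold of 0.05 and depended on which lines were in the fit. It was lost without NU-DUL-1, OCI-Ly7, OCI-Ly19, SU-DHL-8, KMS-12-BM, LP-1, MOLP-8, NCI-H929 or RPMI-8226, with differences from −0.66 to −0.60 and adjusted p from 0.0517 to 0.0645. The other STMN1 probe-set was dim, with a mean of 4.06, and had a difference of −0.22 (adjusted p = 0.0494 from limma), a call that was lost without any 1 of 19 lines. Of 8 genes of proliferating cells, 7 had lower means in MM, of which PCNA alone passed with −0.62 (adjusted p = 0.026). TOP2A and TYMS were read from dim probe-sets, with means of 5.47 and 5.82 in MM and 5.80 and 6.00 in DLBCL. The mean level of all 8 genes ran from 8.40 to 9.73 in the MM lines and from 9.0 to 10.22 in the DLBCL lines. Their part in the STMN1 difference was not tested.

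In all, 3 of the 26 member probe-sets were lower in MM, where 5.87% of all probe-sets were lower, and 0 of 26 were higher, where 5.64% were higher. In both directions together 11.5% of the members and 11.5% of all probe-sets were called, so the members' share was that of the array. At an unadjusted p under 0.05 limma gave 9 of 26 members, where it gave 25.7% of all probe-sets. The median difference of the 10 members was −0.21, against −0.02 over all probe-sets.

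**Figure D2:**
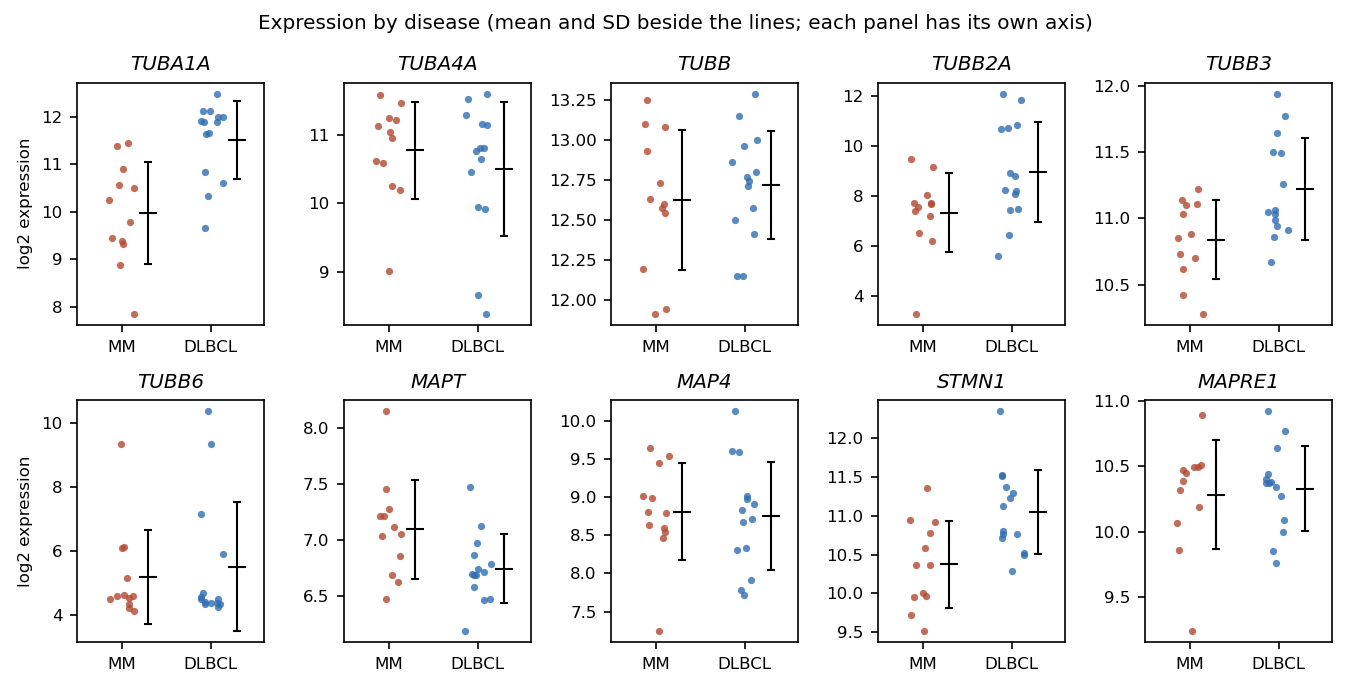
Log2 expression of the 10 members in the 12 MM lines (left in each panel) and the 14 DLBCL lines (right), with mean and SD beside the points and a separate axis in each panel. TUBA1A has means of 9.98 in MM and 11.51 in DLBCL, STMN1 of 10.37 in MM and 11.05 in DLBCL, and in every panel the lines of the diseases overlap.

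The remaining members did not pass. TUBB2A had a mean of 7.33 ± 1.57 (SD, n = 12) in MM and 8.95 ± 1.99 (SD, n = 14) in DLBCL, a difference of −1.62 whose 95% confidence interval ran from −3.03 to −0.21 (adjusted p = 0.131 from limma). TUBB3 had 10.84 ± 0.30 (SD) in MM and 11.22 ± 0.38 (SD) in DLBCL, a difference of −0.38 (SE 0.13, adjusted p = 0.064), which passed when SU-DHL-8 (adjusted p = 0.0376) or KMM-1 (adjusted p = 0.05 after rounding) was left out. MAPT had 7.09 ± 0.44 (SD) in MM and 6.74 ± 0.31 (SD) in DLBCL (difference 0.35, adjusted p = 0.121), and 4 neuronal markers, of which SYT1 alone was higher in MM, had a mean level of 4.76 to 7.0 in MM and 4.8 to 6.18 in DLBCL. Their part in the MAPT values was not tested. The differences of TUBB (−0.09, 95% confidence interval −0.40 to 0.21) and MAPRE1 (−0.05, −0.34 to 0.25) had narrow intervals. Those of TUBB6 (−0.32, −1.72 to 1.08), TUBA4A (0.27, −0.41 to 0.94) and MAP4 (0.06, −0.47 to 0.59) were wider.

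Of 46 other genes of the microtubule system, 41 were measured, each taken by the 1 probe-set that varied most among the DLBCL lines. By limma 4 were higher and 3 lower in MM, where 5.64% of all probe-sets of the array were higher and 5.87% lower. Both gamma tubulins, which start new microtubules at the centrosome, were higher. TUBG1 had a mean of 10.88 ± 0.42 (SD) in MM and 10.08 ± 0.50 (SD) in DLBCL (difference 0.81, adjusted p = 0.00368), and TUBG2 had 6.91 ± 0.83 (SD) in MM and 6.00 ± 0.43 (SD) in DLBCL (difference 0.91, adjusted p = 0.0151). MAP7, a binding protein that recruits kinesin-1, was higher by 0.62 (adjusted p = 0.00558), with means of 5.86 in MM and 5.24 in DLBCL. Of the 7 other proteins of growing ends, MAPRE2 (EB2) was lower with a mean of 6.60 in MM and 7.95 in DLBCL (difference −1.35, adjusted p = 0.00199), and CLIP2, a linker protein, was lower with 5.24 in MM and 6.59 in DLBCL (difference −1.35, adjusted p = 0.0195). CLASP2, which was lower, and MAPRE3, which was higher, are named after their values were seen. CLASP2 had means of 4.86 in MM and 5.73 in DLBCL, and MAPRE3 of 4.21 in MM and 3.72 in DLBCL. The means of MAP7, CLASP2 and MAPRE3 thus lay near or below 5.68, the median of all values. The calls thus lay among the 4 gamma, delta and epsilon tubulins, the 8 structural binding proteins and the 7 proteins of growing ends, and none lay among the other alpha and beta tubulins, folding cofactors, stathmins or severing and modifying enzymes.

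For vincristine, no member passed in any comparison. Expression was fitted on AUC0 within each disease, as the change in log2 expression per SD of AUC0, and between Resistant and Sensitive lines, 4 against 4 in each disease. By limma 0 of 26 member probe-sets had an adjusted p under 0.05 for the slope, where 0.0165% of all probe-sets did in MM and 0.00549% in DLBCL. For the class, 0 of 26 did, against 0% of all probe-sets in MM and 0.00183% in DLBCL, and with both diseases pooled 0 of 26 did, against 0% of all probe-sets for slope and class. At an unadjusted p under 0.05 the slope in MM held 2 of 26 members (5.38% of all probe-sets) and in DLBCL 2 (4.72%). The class held 3 in MM (4.17%) and 0 in DLBCL (3.52%). Pooled over both diseases with a disease term, the slope held 1 of 26 (5.56%) and the class 2 (3.51%).

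STMN1 had the slope of the smallest p for vincristine. In the MM lines its level was 9.51 in LP-1, 9.97 in NCI-H929, 10.00 in MOLP-8 and 10.37 in KMM-1, the Resistant lines, and 9.95 in RPMI-8226, 10.78 in MM1S, 10.95 in OPM-2 and 11.36 in U-266, the Sensitive lines. The Resistant lines were mostly lower, but RPMI-8226 lay among them. The slope in MM was −0.41 per SD of AUC0 (SE 0.14, unadjusted p = 0.00652 and adjusted p = 0.637 from limma), and without LP-1 it was −0.32 (adjusted p = 1). The class difference was −0.80 (SE 0.36, adjusted p = 1). All 8 proliferation genes, with TOP2A and TYMS by their dim probe-sets, had a negative slope in MM as well, with a median of −0.19. PCNA had −0.36 (adjusted p = 0.616 from limma). The part of the 8 genes in the STMN1 slope was not tested. In the DLBCL lines the STMN1 slope was 0.18 (SE 0.14), and its Resistant lines had 10.80, 11.29, 11.37 and 12.35 against 10.49, 10.52, 11.13 and 11.52 in the Sensitive lines. The difference between the slopes in MM and DLBCL, −0.59 (SE 0.19), did not pass over all probe-sets (adjusted p = 1 from limma).

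MAPRE1 had levels of 10.32, 10.45, 10.51 and 10.89 in the MM lines Resistant to vincristine and of 9.24, 9.86, 10.07 and 10.39 in the Sensitive ones, which overlap only through U-266 at 10.39 and MOLP-8 at 10.32. The class difference was 0.66 (SE 0.25, adjusted p = 1 from limma), and the brighter MAPRE1 probe-set had 0.54. In the DLBCL lines the difference was 0.14 (SE 0.25). The slopes on AUC0 were 0.16 in MM and 0.04 in DLBCL, each with an SE of 0.10.

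By their representative probe-sets, the tubulins had slopes on vincristine AUC0 whose intervals included 0 in both diseases. For TUBB the slope was −0.17 (95% confidence interval −0.40 to 0.06) in MM and −0.10 (−0.33 to 0.14) in DLBCL. For TUBB3 by its representative probe-set it was −0.13 (−0.35 to 0.09) in MM and 0.04 (−0.18 to 0.26) in DLBCL, and its other probe-set had −0.19 in MM (adjusted p = 0.89), which became −0.08 without LP-1. The intervals of TUBB2A, from −0.96 to 1.14 in MM and from −0.61 to 1.49 in DLBCL, and of TUBB6, from −1.05 to 0.85 in MM and from −0.88 to 1.02 in DLBCL, were wide, and slopes within them could not be told from 0 with these lines. TUBA1A had slopes of 0.32 in MM and 0.09 in DLBCL (SE 0.29 each) and TUBA4A of −0.41 in MM and −0.11 in DLBCL (SE 0.25 each). In MM, LP-1 had both the lowest TUBA4A level, 9.02, and the highest AUC0. MAPT and MAP4 had representative slopes between −0.07 and 0.10, while 2 other MAP4 probe-sets had slopes of −0.19 and −0.27 in DLBCL (adjusted p = 1 each), of which the first became −0.11 without MC-116 and the second −0.17 without SU-DHL-8.

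**Figure D3:**
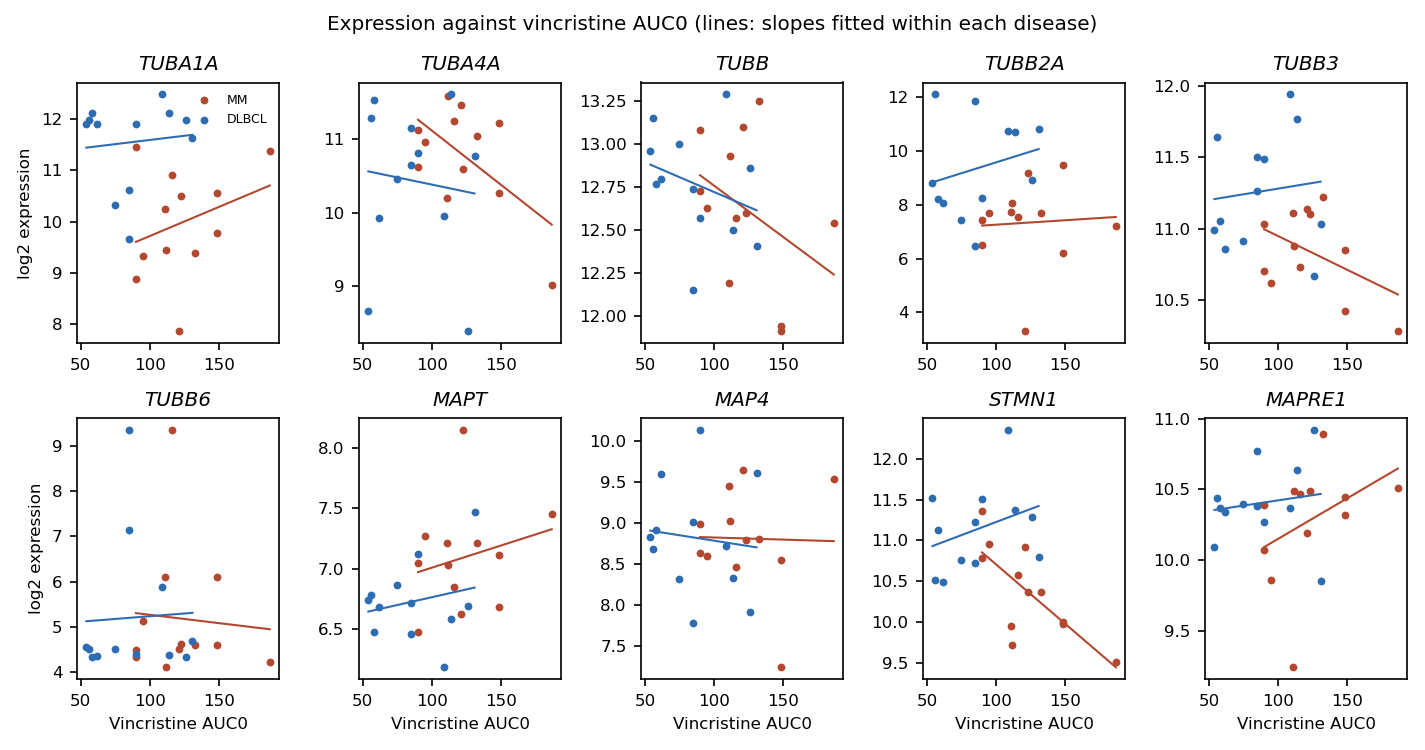
Log2 expression of each member against the vincristine AUC0 of the line (12 MM and 12 DLBCL lines), with the slopes fitted within each disease as lines. The STMN1 slope is −0.41 per SD in MM and 0.18 in DLBCL, and LP-1 is the MM line at an AUC0 of 187.

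Only 2 efflux pumps that carry vincristine were looked at. ABCB1 was dim (mean 3.92 in MM and 3.84 in DLBCL) and ABCC1 had a mean of 7.87 in MM and 8.11 in DLBCL, and neither passed for the slope. The 41 other genes of the microtubule system were again taken by 1 probe-set each. Of these, 8 had an unadjusted p under 0.05 for the slope in MM, where 5.38% of all probe-sets of the array did. In DLBCL 1 did, where 4.72% of all probe-sets did, and 0 passed by limma in either disease. The 8 in MM included 3 other alpha and beta tubulins and 1 of the gamma, delta and epsilon tubulins. The rest were 2 structural binding proteins, 1 folding cofactor and 1 severing or modifying enzyme.

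The slopes on vincristine were then set against those on the other drugs. A joint fit over the 23 lines scored for all 3 drugs held the AUC0 of the 3 drugs together, with a disease term. Each drug had 1 slope for both diseases, adjusted for the other drugs, so these slopes are not those given for each disease alone. Vincristine's slope minus the mean of the doxorubicin and cyclophosphamide slopes gave 0 of 26 member probe-sets and 0% of all probe-sets at an adjusted p under 0.05. At an unadjusted p under 0.05 limma gave 5 of 26 members, where 7.46% of all probe-sets did, and all 5 were tubulin probe-sets with negative values. TUBA4A had −0.55 (SE 0.25, adjusted p = 0.646), which became −0.31 (adjusted p = 0.957) without LP-1. Both TUBB3 probe-sets had −0.22 (SE 0.10, adjusted p = 0.64) and −0.25 (SE 0.08, adjusted p = 0.529), and without LP-1 they had −0.14 and −0.17. The 2 TUBB probe-sets marked with an x had −0.24 each (adjusted p = 0.634 and 0.637), and the third had −0.21. Without MOLP-8 the 2 marked probe-sets had −0.13 each. The 5 probe-sets are not separate evidence, since they were measured on the same lines and the TUBB3 signals are related to those of TUBB and TUBA4A. TUBA4A itself had correlations of 0.0585 and 0.0843 with the 2 marked TUBB probe-sets over the 26 lines, disease means taken off. The median over the 10 members was −0.18, against −0.01 over all probe-sets.

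**Figure D4:**
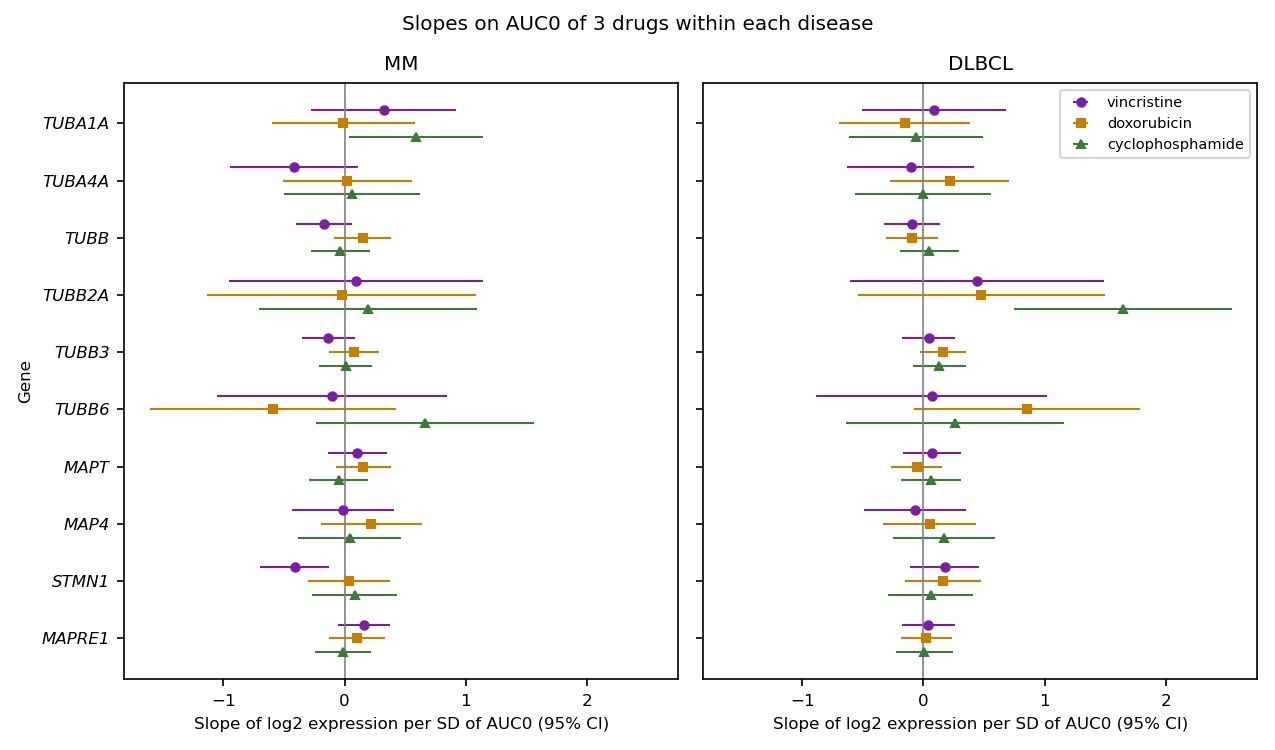
Slope of log2 expression per SD of AUC0 with its 95% confidence interval for each member (rows), for vincristine, doxorubicin and cyclophosphamide, in the MM lines (left) and the DLBCL lines (right). The interval of STMN1 for vincristine in MM and those of TUBA1A in MM and TUBB2A in DLBCL for cyclophosphamide exclude 0, none after adjustment over all probe-sets.

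For cyclophosphamide the member with the largest values was TUBB2A, and its interval was clear of 0 in DLBCL but not in MM. Its level was 10.71 in RIVA, 10.81 in DB, 11.82 in U2932 and 12.08 in FARAGE, the Resistant DLBCL lines, and 5.60 in NU-DHL-1, 8.20 in SU-DHL-5, 8.25 in NU-DUL-1 and 8.78 in OCI-Ly19, the Sensitive ones. The classes did not overlap, with means of 11.35 ± 0.70 (SD, n = 4) in the Resistant and 7.71 ± 1.43 (SD, n = 4) in the Sensitive lines. The difference of 3.65 (SE 0.62) had an unadjusted p of 4.29e-05 from limma but did not pass over all probe-sets (adjusted p = 0.169). The slope on AUC0 was 1.65 per SD (SE 0.43, adjusted p = 0.514). In the MM lines the class difference was 0.21 (SE 0.62), and the difference between MM and DLBCL, −3.44 (SE 0.88), did not pass either (adjusted p = 0.776). The study's own gene signatures for this drug were built on these lines and include TUBB2A, so that choice is not independent of the values above.

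The vincristine classes held partly other lines. FARAGE, the line of the highest TUBB2A, was Sensitive to vincristine, with an AUC0 of 56, as well as to doxorubicin. The DLBCL lines Resistant to vincristine had 8.92, 10.68, 10.71 and 10.81 against 8.07, 8.20, 8.78 and 12.08 in the Sensitive ones, a difference of 1.0 (SE 0.85, adjusted p = 1 from limma).

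**Figure D5:**
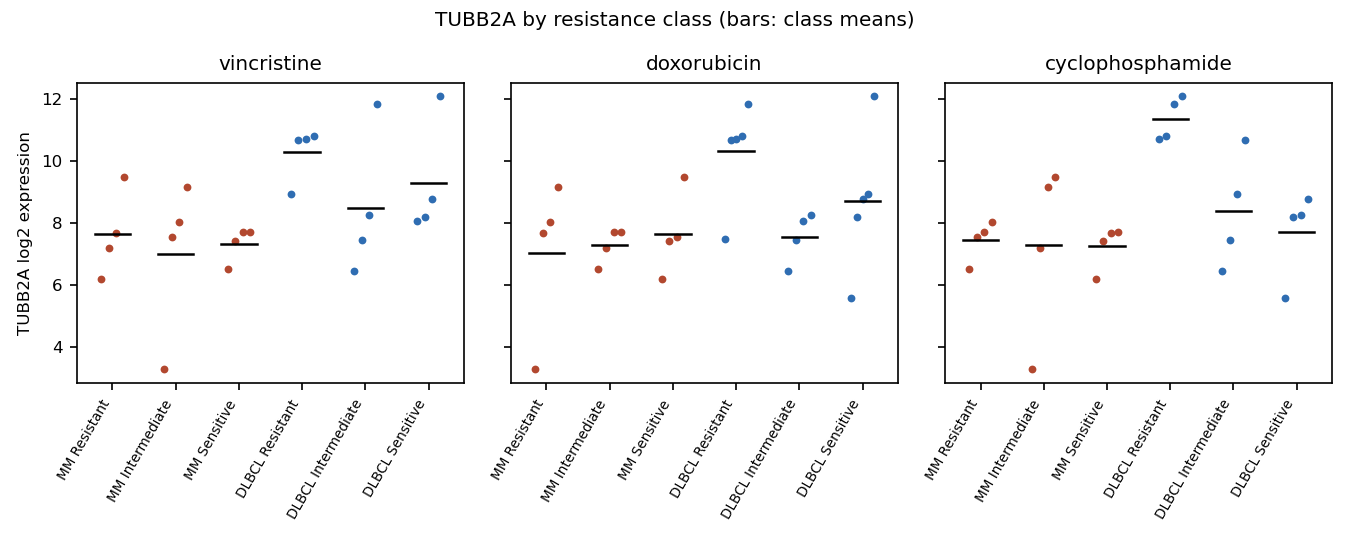
Log2 expression of TUBB2A by resistance class within each disease, for vincristine (left), doxorubicin (middle) and cyclophosphamide (right), with a bar at each class mean. The DLBCL lines Resistant to cyclophosphamide lie at 10.71 or more and the Sensitive ones at 8.78 or less, while FARAGE, at 12.08, is in the Sensitive class for the other two drugs.

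Among representative probe-sets, TUBA1A in MM also had an unadjusted p under 0.05 for cyclophosphamide. Its Resistant MM lines had 9.44, 10.24, 10.91 and 11.45 and its Sensitive ones 8.88, 9.33, 9.39 and 9.78, a difference of 1.17 (SE 0.42, adjusted p = 0.935 from limma), with a single Resistant line, KMS-12-BM, inside the Sensitive range. In DLBCL the difference was −0.22 (SE 0.42). Over all 26 member probe-sets, 0 had an adjusted p under 0.05 for cyclophosphamide. For the slope this compares with 0% of all probe-sets in MM, in DLBCL and pooled, and for the class with 0.033% in MM, 0.0146% in DLBCL and 0% pooled. At an unadjusted p under 0.05 the slope held 1 of 26 in MM (4.27% of all probe-sets), 2 in DLBCL (5.16%) and 1 pooled (3.74%), and the class held 1 in MM (4.86%), 2 in DLBCL (4.6%) and 1 pooled (4.29%). The second member in DLBCL was a MAPT probe-set, with a slope of 0.14 (0.09 without SU-DHL-5) and a class difference of 0.33, and the pooled member was TUBB2A.

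For doxorubicin, the MM classes held the highest share of members at an unadjusted p among the drug comparisons, 9 of 26 or 34.6%, where 7.89% of all probe-sets had one. They were all 3 TUBB, 4 MAP4 and 2 MAPT probe-sets, all higher in the Resistant lines, so they stand for 3 genes. TUBB had 12.60 in KMS-11, 12.93 in KMS-12-BM, 13.10 in KMS-12-PE and 13.25 in KMM-1, which were Resistant, and 11.91 in NCI-H929, 11.94 in MOLP-8, 12.57 in AMO-1 and 13.08 in MM1S, which were Sensitive. MM1S lay within the Resistant range, and the difference was 0.60 (SE 0.26, adjusted p = 0.58 from limma). MAP4 had 8.79, 8.80, 9.02 and 9.65 in the Resistant lines and 7.24, 8.46, 8.55 and 8.63 in the Sensitive ones, which did not overlap (difference 0.84, SE 0.36, adjusted p = 0.556). Without NCI-H929 the MAP4 difference was 0.52 (adjusted p = 0.841). The Resistant class holds KMS-12-PE and its sister line KMS-12-BM. In the DLBCL lines the differences were −0.27 (SE 0.23) for TUBB and 0.52 (SE 0.32) for MAP4.

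No member probe-set passed for doxorubicin by limma in any comparison. The shares of all probe-sets at an adjusted p under 0.05 were 0.0165% for the slope and 0.0201% for the class in MM, 0.00183% for the slope and 0.00366% for the class in DLBCL and 0% for both when pooled. At an unadjusted p under 0.05 the slope held 4 of 26 members in MM (4.9% of all probe-sets), 0 in DLBCL (5.86%) and 2 pooled (4.98%), and the class held 0 in DLBCL (8.18%) and 5 pooled (6.49%), namely 3 MAP4, 1 MAPT and 1 TUBB3 probe-sets. TUBB6 had the largest estimates, with class differences of −1.64 (SE 1.12) in MM and 2.10 (SE 1.0) in DLBCL. Their 95% confidence intervals were −4.02 to 0.74 in MM and −0.03 to 4.23 in DLBCL. Among the Sensitive MM lines AMO-1 had 9.34 and the others 4.34 to 6.11. Among the Resistant DLBCL lines SU-DHL-4 had 10.37 and the others 4.39 to 7.14. Across the 3 drugs, 0 of 26 members passed in any of the 6 tests of a difference between MM and DLBCL, with adjusted p of 0.476 or more, where 0.0275% of all probe-sets did for the doxorubicin class, 0.0256% for the cyclophosphamide class and 0% in the other tests. At an unadjusted p under 0.05 the slopes held 2 of 26 members for vincristine (4.02% of all probe-sets), 2 for doxorubicin (5.18%) and 1 for cyclophosphamide (4.59%). The classes held 2 for vincristine (3.51%), 6 for doxorubicin (8.91%), of which 3 were TUBB probe-sets, and 2 for cyclophosphamide (4.54%).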

How the data were processed

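RNA of 26 untreated cell lines was hybridised to Affymetrix expression arrays, 1 per line. The deposited values are log2 expression, which the authors made with RMA (affy package, R 3.0.1 per the submitters' processing notes), so values are comparable between arrays but not between probe-sets. AUC0 and classes came from the labels, where the doxorubicin class stands under a repeated cyclophosphamide tag and was read as doxorubicin's because it follows the tertiles of that AUC0. For OCI-Ly7 the labels give Resistant to doxorubicin, as used here, while the study's supplement lists it as Sensitive. Depth does not apply to arrays, and the number of lines limits the precision. The values were used as deposited for 54613 probe-sets after 62 control probe-sets were left out. Linear models (R 4.3.3, limma 3.58.1) were fitted on all of them with Benjamini-Hochberg adjustment, called at an adjusted p under 0.05, and tested on simulated data. They covered MM minus DLBCL, slopes per SD of AUC0 and Resistant minus Sensitive within each disease and pooled with a disease term, differences between diseases, and vincristine minus the other drugs. All 10 members were named by the probe-set of largest SD over the DLBCL lines, and pathway genes by the 2 largest called differences of each role. Members and lists were chosen with earlier results of these data known. Some genes of the lists, among them FCGR3A, TUBA3C, TUBA3D, TUBA3E and TUBB8, were not analysed here. Promoters came from RefSeq (GRCh38.p14), and figures were drawn in Python 3.11.15 with matplotlib 3.10.9. The alternatives were other probe-set choices, covariates, left-out lines and rank-based scores.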

Additional observations from a re-analysis of the deposited data

Results flagged for a closer look

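Each of the 10 members was looked at in 12 class groups of 4 or 5 lines, 120 tests in all. In 6 of the 120 a single line lay far from the rest by Dixon's criterion, where chance picks out about 1 in 20. The tests share lines and are not independent. TUBB2A was 8.92 in SU-DHL-8 among the DLBCL lines Resistant to vincristine, whose other lines had 10.68 to 10.81. TUBB2A was 7.49 in SU-DHL-4 among the DLBCL lines Resistant to doxorubicin, whose other lines had 10.68 to 11.82. TUBA4A was 10.26 in MOLP-8 among the MM lines Sensitive to doxorubicin, whose other lines had 11.12 to 11.24. MAP4 was 7.24 in NCI-H929 in that same class, against 8.46 to 8.63 in the others. MAPRE1 was 9.24 in RPMI-8226 among the MM lines Resistant to cyclophosphamide, with 10.39 to 10.49 in the others, and 9.85 in DB among the DLBCL lines Resistant to that drug, with 10.37 to 10.44 in the others.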

How the results depend on the processing

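A total of 12 other settings were run, and each of the 26 lines was left out in turn. For the drugs, the count of members that passed stayed at 0 in every setting. The count of member probe-sets higher in MM became 1 (MAPT) with KMS-12-PE left out, and ranged from 0 to 1 over the single lines left out. The count lower in MM, and likewise the count by representative probe-sets, fell to 1 with the lines grown in IMDM left out, where STMN1 had −0.63 (adjusted p = 0.0643 from limma), and each ranged from 1 to 3 over the single lines left out. TUBA1A passed in all of them, with adjusted p from 0.00174 to 0.0113. Sign changes occurred only in differences that never passed. With single lines left out, MAPRE1 ranged from −0.104 to 0.0464 (highest without RPMI-8226), TUBB6 from −0.699 to 0.0535 (highest without SU-DHL-4) and MAP4 from −0.0219 to 0.2003. MAPRE1 became 0.0314 by its brightest probe-set, and MAP4 became −0.019 with KMS-12-PE left out and −0.0422 with the IMDM lines left out. No paired analysis was possible because each line was measured once and replicate numbers only name the lines. The signal limits TUBB6, the second STMN1 and some MAPT and MAP4 probe-sets, 6 of 26 in all, whose means lay below the median of all values.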
